A study of Mus musculus with 8 samples.

Results

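The protein subunits of the mitochondrial ribosome were followed through 78 genes, which were all gene rows of the deposited count table whose symbol began with Mrpl or Mrps and a digit, without the pseudogene ending, and whose count summed over the 8 libraries was at least 400. They were 78 of 31815 gene rows, 49 with a large-subunit symbol (Mrpl) and 29 with a small-subunit symbol (Mrps). The lowest sum among them was 4257, in Mrpl53, and the highest was 38360, in Mrpl18. No row with such a symbol lay under 400, so the minimum removed no gene, and all 78 passed the filter on low counts.

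The mitochondrial ribosome sits in the mitochondrial matrix and translates the messenger RNAs of mitochondrial DNA, which encode core subunits of the respiratory chain and of ATP synthase. Its RNAs come from mitochondrial DNA, whereas its proteins are encoded in the nucleus, made on cytosolic ribosomes and imported. The small subunit reads the codons, and the large subunit joins the amino acids. Naive CD8 T cells enlarge their mitochondria and raise mitochondrial translation when they are activated.

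All cells were CD8+ T cells from spleens of OTI mice (C57BL/6-Tg(TcraTcrb)1100Mjb/J), whose transgenic receptor recognises an ovalbumin peptide. Every culture received this peptide for 3 days, was transduced at 24 h and was sorted on day 5, and the groups therefore share genotype, stimulation and exposure to a retroviral vector. The vector carried TOXFL or TOXdeltaN, forms of the HMG-box nuclear protein TOX, followed by an internal ribosome entry site and GFP. The 4 groups, with 2 libraries each, were TOXFL-negative and TOXdeltaN-negative cells, which lacked GFP, and TOXFL-positive and TOXdeltaN-positive cells, which were the brightest 20% of the GFP-positive cells. Age and sex of the mice are not in the labels, and neither is the origin of replicates from different mice or cultures, so the p-values reflect no more than the variation among these 8 libraries, which may be technical. Cells with a GFP-only vector were not analysed here, so the presence of a vector, a high GFP level and the TOX protein cannot be told apart in a GFP comparison.

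Library totals lay between 25059112 and 31240067 counts. Tox, counted from the endogenous gene and the vector together, stood between 21.8 and 34.4 CPM (counts per 1000000 counts of the library, scaled by its TMM factor) in the 4 GFP-negative libraries and between 82.9 and 126.3 CPM in the 4 GFP-positive libraries. The 7 markers of CD8 T cells summed to 4407 to 4904 CPM. The 5 B cell markers summed to 16.4 to 17.5 CPM in the GFP-negative and 13.99 to 16.4 CPM in the GFP-positive libraries, nearly all of it from Cd79b. The myeloid list summed to 2.98 to 5.55 CPM, with Adgre1 at 0, and the CD4 T, NK and erythroid lists to 0.910 to 4.45, 0.345 to 1.78 and 0.135 to 4.34 CPM. Their part in the results was not tested. TOXdeltaN-positive replicate 2 stood apart from the other libraries: the median of 78 genes was 0.28 above their mean on the log2 scale there, against 0.03 in TOXdeltaN-positive replicate 1, and it held the highest value of 74 of the 78 genes. It also differed in a trend with gene length over all tested genes, the 25% with the shortest exons being 0.16 higher and the 25% with the longest 0.16 lower than their means. The median merged exon length of the 78 genes was 2394 bases, against 4501.5 for the other protein-coding genes with a summed count of at least 400, so results are given below with and without that library and with a correction for length. A length trend also ran with GFP status. Relative to their means, the 25% with the longest exons stood at 0.020 to 0.090 in the GFP-negative libraries. In the GFP-positive libraries they stood at -0.16 to 0.0005. The 25% with the shortest exons stood at -0.060 to -0.011 and at -0.014 to 0.16. Leaving out TOXdeltaN-positive replicate 2 therefore does not remove the trend. The part of length in the results was not tested beyond the correction for length.

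By the GENCODE M21 annotation of GRCm38, which gives the coordinates below, the genes were spread over 17 chromosomes. Of the 78, 44 were classed as homologues of bacterial ribosomal proteins (29 large, 15 small), and the other 34 were counted as specific to mitochondria. Mrps18a and Mrps18b, of the same S18 family as Mrps18c, and Mrps36 were counted among the 34. A protein-coding neighbour started head to head within 1000 bases in 33 of 78 (42.3%), against 18.4% of 10038 other protein-coding genes with the same minimum count. Mrpl46 and Mrps11, a large-subunit and a small-subunit gene on chromosome 7, were such neighbours of each other. Other partners included Sars2 beside Mrps12, Ndufs6 beside Mrpl36, Twnk beside Mrpl43 and Tcp1 beside Mrpl18, which encode a mitochondrial seryl-tRNA synthetase, a complex I subunit, the helicase of mitochondrial DNA and a chaperonin subunit. Exons of 33 members overlapped an exon of another gene. In 28 of them a gene on the other strand was involved, which was protein-coding for 20. The library chemistry does not mark strand, so reads from such overlaps cannot be assigned to a strand. Among the members with values below this touches Mrpl9, Mrpl13, Mrpl18, Mrpl24, Mrpl27, Mrpl44, Mrpl47, Mrps7, Mrps11 and Mrps30 through coding genes, and Mrpl10, Mrpl12, Mrpl53, Mrps18b and Mrps26 through noncoding ones. On the same strand only, exons overlapped in Mrps24 (with Urgcp), Mrps6 (a locus shared with Slc5a3 and Gm49711), Mrpl33, Mrpl51 and Mrps18c. How reads were divided between genes there was not tested.

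Promoters of 69 of the 78 genes were in the RefSeq table for GRCm38.p6, each from 250 bases before to 50 after the start. They were searched on both strands for short motifs of NRF1 and of the ETS factor GABP, regulators known for nuclear genes of mitochondria, and of YY1. The NRF1 motif GCGCANGCG (N, any base) was present in 16 of 69 promoters (23.2%), against 6.47% of 27025 promoters in the table and 15.4% of 8480 other genes with a summed count of at least 400. The ETS motif CCGGAAG was present in 25 (36.2%), against 9.12% and 21%. The YY1 motif AAGATGGC was present in 12 (17.4%), against 2.88% and 5.22%. An E-box, CACGTG, the core of the Myc site, was found in 5 (7.25%), against 7.24% and 10.7%, and the Sp1 motif GGGCGG in 34 (49.3%), against 35.9% and 66.5%. A match is a description of letters and does not show binding. Some promoters hold several of the motifs and are counted under each.

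The stretches below lie upstream of the start and outside annotated exons, and are shown for all 10 members named by the rule for genes that carry NRF1 or ETS letters there, whether or not they were called in any fit. Capitals mark the motif on either strand, with 20 flanking bases where the window allowed. Mrpl12 (chr11:120484537-120484585, plus strand) and Mrpl10 (chr11:97041427-97041475, plus strand) encode partners in the ribosomal stalk. Mrpl45 (chr11:97315576-97315706, plus strand) holds NRF1 letters at both ends of its stretch. Mrpl22 (chr11:58171591-58171659, plus strand) holds ETS and NRF1 letters close together. Mrps22 (chr9:98601680-98601710, minus strand) and Mrps18a (chr17:46110958-46110985, plus strand) hold ETS letters near the start. Mrpl34 (chr8:71464869-71464915, plus strand), Mrpl52 (chr14:54426842-54426888, plus strand) and Mrps18c (chr5:100798599-100798626, plus strand) also hold ETS letters, and Mrpl9 (chr3:94443288-94443317, plus strand) holds overlapping NRF1 letters.
Mrpl12: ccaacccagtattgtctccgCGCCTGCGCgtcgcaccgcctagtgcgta
Mrpl10: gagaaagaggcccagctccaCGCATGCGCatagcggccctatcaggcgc
Mrpl45: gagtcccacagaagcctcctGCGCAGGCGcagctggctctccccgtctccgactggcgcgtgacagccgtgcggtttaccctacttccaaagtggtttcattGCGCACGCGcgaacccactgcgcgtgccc
Mrpl22: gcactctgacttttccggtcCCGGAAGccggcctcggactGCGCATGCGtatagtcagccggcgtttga
Mrps22: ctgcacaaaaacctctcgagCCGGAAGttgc
Mrps18a: cggctgcgcacacccctgctCCGGAAGc
Mrpl34: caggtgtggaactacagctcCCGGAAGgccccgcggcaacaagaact
Mrpl52: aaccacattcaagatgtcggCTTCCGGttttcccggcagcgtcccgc
Mrps18c: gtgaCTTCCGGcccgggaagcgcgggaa
Mrpl9: ggcagcccagaggcgcagctGCGCATGCGC

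All 78 genes were expressed in every library. Per kilobase of merged exons, the scale on which levels of different genes are compared here, mean levels over the 8 libraries ran from 4.69 CPM in Mrpl47, the homologue of bacterial L29, to 120 CPM (119.7) in Mrpl18, a protein of the central protuberance. Mrpl34 followed with 109 CPM per kilobase and Mrpl54 with 77.6 among Mrpl genes. Mrps21 with 86.9 was the highest Mrps gene, before Mrps15 with 53.9 and Mrps18c with 47.5. Mrps35 (4.85), Mrps10 (5.47), Mrps22 (6.32) and Mrpl1 (7.44) stood near the bottom. This order rests on the annotated exons, since per kilobase of the median coding transcript Mrps10 moved from rank 76 to rank 46, Mrpl33 led with 182 and Mrpl18 was the sixth.

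As a whole, the 78 genes took 0.434 ± 0.0102% of counts in TOXFL-negative, 0.481 ± 0.0101% in TOXFL-positive, 0.454 ± 0.0148% in TOXdeltaN-negative and 0.525 ± 0.0682% in TOXdeltaN-positive cells (mean ± SD, n = 2). By library, in the order of replicates 1 and 2, the shares were 0.427% and 0.441%, 0.474% and 0.488%, 0.444% and 0.465%, and 0.477% and 0.574%. All 4 GFP-positive libraries lay above all 4 GFP-negative ones, and only the TOXdeltaN-positive pair was far apart. The Mrpl genes moved from 0.280 ± 0.00670% to 0.311 ± 0.00664% with TOXFL and from 0.294 ± 0.00943% to 0.341 ± 0.0443% with TOXdeltaN. The Mrps genes moved from 0.154 ± 0.00345% to 0.171 ± 0.00342% and from 0.160 ± 0.00541% to 0.185 ± 0.0239%. Genes of mitochondrial DNA took 0.833 ± 0.00147% of counts in TOXFL-negative, 0.579 ± 0.182% in TOXFL-positive, 0.902 ± 0.0105% in TOXdeltaN-negative and 0.781 ± 0.0238% in TOXdeltaN-positive cells, so the shares of nuclear subunit genes and of mitochondrial transcripts differed in opposite directions. Since these were bulk samples, a change per cell and a change in the mix of cells cannot be told apart.

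**Figure D1:**
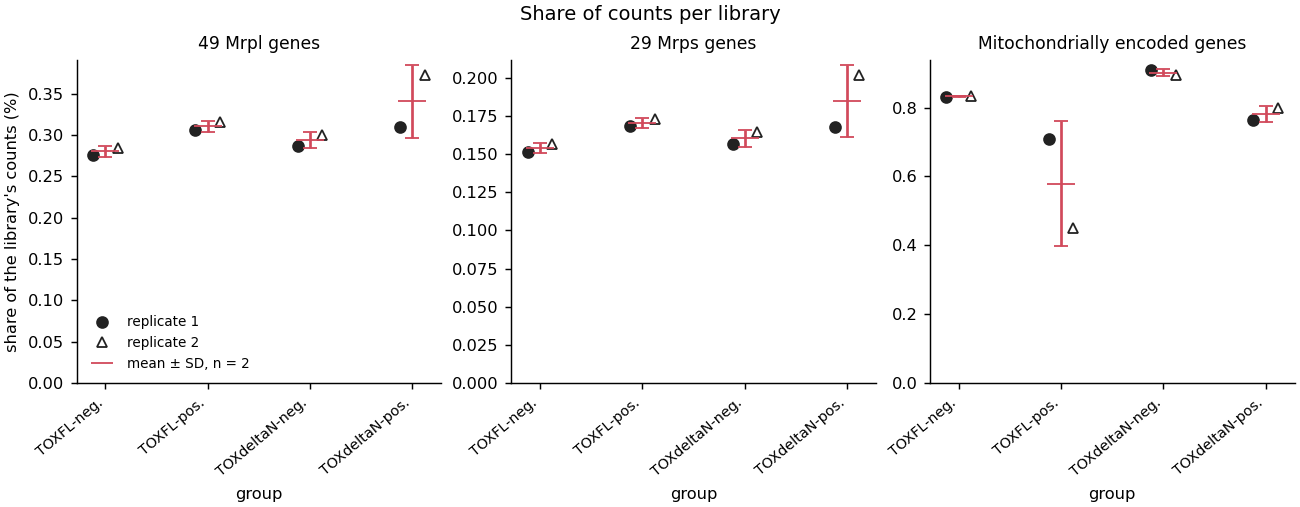
Share of each library's counts (%, vertical axis from 0) in the 49 Mrpl genes, the 29 Mrps genes and the genes of mitochondrial DNA, by group (horizontal axis). Filled circles are replicate 1, open triangles replicate 2, and red bars mean ± SD of 2 libraries. The GFP-positive libraries lie above the GFP-negative ones for Mrpl and Mrps genes and below them for mitochondrial transcripts.

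Averaged over both constructs, the estimated relative RNA level of nearly every mitochondrial ribosomal protein gene was higher in GFP-positive cells, by a small amount. The median log2 difference was 0.16 (a fold of 1.12), with the middle of the genes between 0.10 and 0.23 (quartiles), and 76 of 78 were above 0, against a median of -0.0005 and 49.9% above 0 over 13329 tested genes. In edgeR's quasi-likelihood test, adjusted over all genes, 0 of 78 were called at an adjusted p of 0.05, where 2.42% of tested genes were called. At an unadjusted p under 0.05 there were 30 of 78 (38.5%), against 21.9% of tested genes. The 78 genes were read from the same 8 libraries and are not independent of each other. Within groups, their median per library had a pooled SD of 0.095 on the log2 scale. Without TOXdeltaN-positive replicate 2 the median was 0.09, with 72 of 78 above 0. DESeq2 called 6 of 78, where it called 1058 of 13329 tested genes (7.94%), of which only 11003 received an adjusted p. The limma-voom test called 1, where it called 2.56%.

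With the replicate number as a block, 14 of the 78 rose and none fell, where 12.7% of tested genes were called and 6.04% were called higher. These were Mrpl12, Mrpl13, Mrpl18, Mrpl28, Mrpl45 and Mrpl51 of the large subunit and Mrps6, Mrps10, Mrps12, Mrps18a, Mrps21, Mrps22, Mrps24 and Mrps26 with small-subunit symbols, and Mrps6 was named after its values were seen. Fold changes of the 14 ran from 1.17 in Mrps12 to 1.28 in Mrpl28. When single libraries were dropped from the blocked fit, each of the 14 genes was still called in 1 to 5 of the 8 refits. The number of blocked calls was 10 without TOXdeltaN-positive replicate 2 (14.5% of tested genes), 48 without TOXdeltaN-positive replicate 1 (26.5%), and 0 without TOXFL-negative replicate 2 or either TOXdeltaN-negative library. The lone remaining library of a group is assumed there to vary like the others. In 30 of the 78 genes both positive libraries lay above both negative libraries with each construct, as did 11.4% of tested genes.

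**Figure D2:**
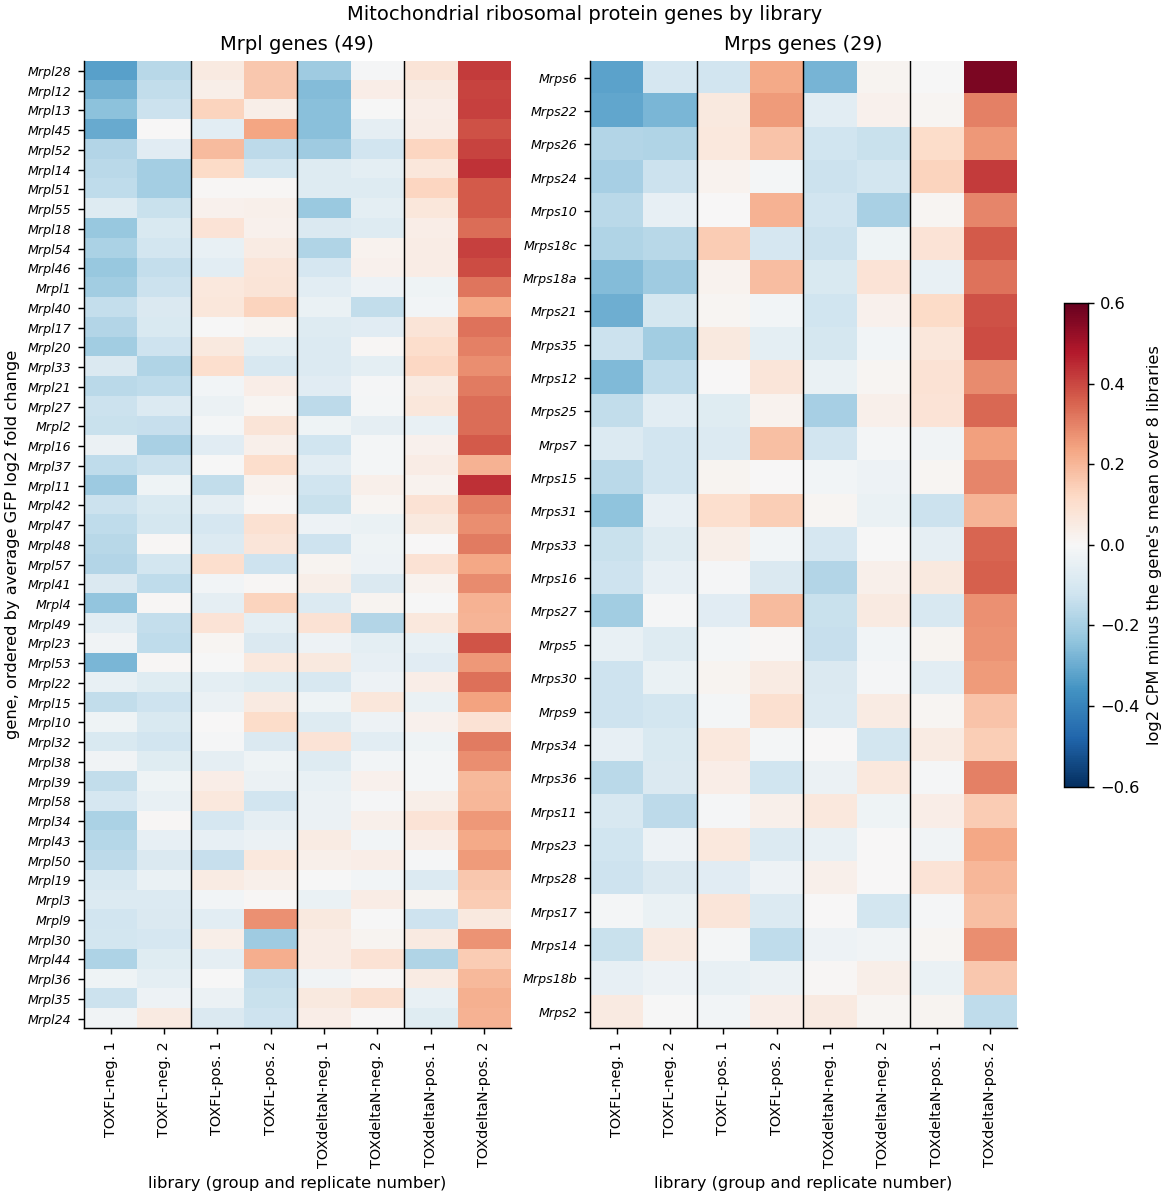
Heat map of the 78 genes (rows, in panels for Mrpl and Mrps genes, ordered by the average GFP difference) in the 8 libraries (columns), as log2 CPM minus the gene's mean over the libraries, red above and blue below that mean. TOXdeltaN-positive replicate 2 is the highest library for 74 genes, and TOXFL-negative replicate 1 is the lowest for 42.

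Mrps26, a small-subunit protein specific to mitochondria (chr2:130563742-130568695), came closest to a call without the block. It stood at 67.0 and 66.7 CPM in TOXFL-negative, 79.0 and 85.1 in TOXFL-positive, 69.7 and 68.8 in TOXdeltaN-negative, and 81.7 and 90.5 CPM in TOXdeltaN-positive libraries. Every positive library was above every negative library, and the replicates of the negative groups nearly coincided. The average log2 difference was 0.31 (SE 0.067, adjusted p = 0.0503), or with the block an adjusted p of 0.0120. It was between 0.27 and 0.34 in all 8 omissions of a library.

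The stalk of the large subunit recruits translation factors, and of the 3 stalk genes named here only Mrpl12 was called, with the block; differences between these genes were not tested. Several copies of the protein of Mrpl12 (chr11:120484613-120489065) hang on that of Mrpl10. Mrpl12 stood at 85.2 and 94.0 CPM in TOXFL-negative, 106.4 and 116.4 in TOXFL-positive, 86.8 and 106.8 in TOXdeltaN-negative, and 108.0 and 137.9 CPM in TOXdeltaN-positive libraries. Within each construct the positive libraries were above the negative ones, and replicate 2 was above replicate 1 in every group. Its log2 difference was 0.33 (SE 0.10, adjusted p = 0.108), and 0.0102 was the adjusted p with the block. Mrpl10, its anchor, ranged only from 70.9 to 74.1 CPM in the negative and from 75.6 to 81.3 CPM in the positive libraries, with a log2 difference of 0.11 (adjusted p = 0.335, blocked 0.245). Mrpl11, at the base of the stalk, ranged from 35.7 to 42.5 CPM in the negative and from 37.4 to 56.2 CPM in the positive libraries. These ranges overlapped, and its log2 difference of 0.17 was not called (adjusted p = 0.371, blocked 0.153).

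Mrpl28, the homologue of bacterial L28 (chr17:26123500-26126613), had the highest average difference among the 78. It stood at 76.8 and 85.9 CPM in TOXFL-negative, 99.8 and 107.9 in TOXFL-positive, 83.1 and 95.9 in TOXdeltaN-negative, and 101.8 and 128.7 CPM in TOXdeltaN-positive libraries. No positive library fell to the level of a negative one. The log2 difference was 0.36 (SE 0.093, adjusted p = 0.0772, blocked 0.00641), and it was still called in 5 of the 8 blocked refits, the most among the 14 genes.

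Of 3 genes whose proteins sit around the exit tunnel, where the new chain leaves the ribosome, only Mrpl45 was called, with the block; differences between these genes were not tested. Mrpl45, which ties the ribosome to the inner membrane (chr11:97315716-97329920), stood at 48.8 and 60.4 CPM in TOXFL-negative, 57.6 and 70.9 in TOXFL-positive, 50.7 and 57.9 in TOXdeltaN-negative, and 62.1 and 78.5 CPM in TOXdeltaN-positive libraries. The TOXFL groups overlapped, replicate 2 being the higher in each group, and the log2 difference of 0.30 (SE 0.11, adjusted p = 0.162) was called with the block (adjusted p = 0.0127). Mrpl22, the homologue of a protein that lines the tunnel, stood between 30.4 and 31.8 CPM in the 4 negative libraries, at 31.2 and 30.9 CPM in TOXFL-positive and at 33.4 and 40.8 CPM in TOXdeltaN-positive libraries. Only TOXdeltaN-positive replicate 2 was far from the rest, and the average log2 difference of 0.12 was not called (adjusted p = 0.404, blocked 0.321). Mrpl44, mutated in an inherited heart disease of mitochondria, stood at 32.2 and 34.8, 35.2 and 42.6, 37.7 and 38.8, and 32.3 and 40.7 CPM in the same order of groups. Its log2 difference was 0.22 with TOXFL and -0.07 with TOXdeltaN, and the average of 0.07 became -0.02 with the length correction.

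Further called members of the large subunit were Mrpl13, Mrpl18 and Mrpl51. Mrpl51 (chr6:125191801-125196269) stood at 81.0 and 78.1, 90.3 and 90.3, 85.2 and 85.2, and 98.3 and 116.0 CPM in the groups as ordered above, with no overlap within a construct. Its log2 difference was 0.26 (SE 0.071, blocked adjusted p = 0.0339). Mrpl18 ranged from 142 to 157 CPM in the negative and from 169 to 210 CPM in the positive libraries, with a log2 difference of 0.25 and a blocked adjusted p of 0.0446, and its exons overlap Tcp1. Mrpl13, an early assembling homologue of bacterial L13, ranged from 55.5 to 66.0 CPM and from 67.6 to 87.7 CPM, with a log2 difference of 0.31 and a blocked adjusted p of 0.0316, and it overlaps Mtbp. Mrpl1, of the stalk where spent tRNA leaves, had a log2 difference of 0.22 that was not called (blocked adjusted p = 0.0958).

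In the small subunit, the decoding protein Mrps12 (chr7:28739641-28741820) stood at 40.7 and 44.0 CPM in TOXFL-negative, 49.1 and 51.5 in TOXFL-positive, 47.6 and 49.3 in TOXdeltaN-negative, and 52.0 and 59.6 CPM in TOXdeltaN-positive libraries. The TOXFL-negative libraries were the lowest, and the TOXFL-positive ones overlapped the TOXdeltaN-negative range. The average log2 difference was 0.23 (SE 0.074, blocked adjusted p = 0.0442). Mrps24, the homologue of bacterial S3, stood at 57.3 and 60.15, 66.8 and 65.2, 60.2 and 61.0, and 72.3 and 87.9 CPM, and its log2 difference of 0.29 was called with the block (adjusted p = 0.0273). Mrps6, the homologue of a platform protein, had the highest average difference among Mrps genes, 0.35 (SE 0.14, blocked adjusted p = 0.0175), with values from 33.3 to 42.1 CPM in negative and from 38.4 to 61.5 CPM in positive libraries that overlapped. Exons of Mrps24 and Mrps6 overlap exons of other genes on the same strand. Mrps10 and Mrps21, homologues of bacterial S10 and S21, rose with the block by 0.26 and 0.25 (adjusted p = 0.0498 and 0.0394).

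Mrps22, a mitochondria-specific subunit mutated in human mitochondrial disease (chr9:98588730-98601660), stood at 20.1 and 20.6 CPM in TOXFL-negative, 26.0 and 29.8 in TOXFL-positive, 23.9 and 25.4 in TOXdeltaN-negative, and 25.2 and 30.8 CPM in TOXdeltaN-positive libraries. The TOXFL groups were well apart, while the TOXdeltaN groups overlapped. Its log2 difference was 0.45 with TOXFL (SE 0.13, adjusted p = 0.193), the highest of the 78 genes in that comparison, and 0.18 with TOXdeltaN, and on average it was called with the block (0.32, adjusted p = 0.0267). Mrps16 and Mrps7, 2 further disease genes, had average log2 differences of 0.16 and 0.17 and were not called in either fit (blocked adjusted p = 0.168 and 0.154).

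The S18 family has 3 members in mammals. Mrps18a, which despite its symbol is built into the large subunit, stood at 40.6 and 42.0 CPM in TOXFL-negative, 49.4 and 55.4 in TOXFL-positive, 45.7 and 51.6 in TOXdeltaN-negative, and 47.2 and 61.0 CPM in TOXdeltaN-positive libraries. Its log2 difference of 0.25 was at the edge of a call with the block (adjusted p = 0.049965). Mrps18b, of the small subunit, stayed between 55.3 and 58.8 CPM in all libraries other than TOXdeltaN-positive replicate 2 (64.0), with an average log2 difference of 0.02 that turned to -0.06 with the length correction. Mrps18c, which takes the place of bacterial S18, ranged from 44.7 to 49.8 CPM in the negative and from 47.3 to 65.4 CPM in the positive libraries, with a log2 difference of 0.26 (blocked adjusted p = 0.0804). Mrps30, the other Mrps protein of the large subunit, differed by 0.13 (blocked adjusted p = 0.218), and Mrps36, now assigned to the 2-oxoglutarate dehydrogenase complex, by 0.11 (blocked adjusted p = 0.393).

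In the blocked fit 6.04% of tested genes were called higher, the share beside which the counts of this paragraph stand. By subunit, the average GFP difference had a median of 0.16 in the Mrpl genes (48 of 49 above 0, 6 or 12.2% called with the block) and of 0.16 in the Mrps genes (28 of 29 above 0, 8 or 27.6% called with the block). Genes classed as homologues of bacterial proteins had a median of 0.17 (9 of 44 called with the block, 20.5%). Those counted as mitochondria-specific, Mrps18a and Mrps18b among them, had a median of 0.16 (5 of 34, 14.7%). Genes with a head-to-head neighbour had a median of 0.15 (4 of 33, 12.1%) and genes without it of 0.16 (10 of 45, 22.2%). Without the 20 genes whose exons overlap an antisense protein-coding gene the median was 0.16 (12 of 58, 20.7%). The 16 promoters with NRF1 letters had a median of 0.13 (4 called with the block), the 25 with ETS letters of 0.19 (7), the 12 with YY1 letters of 0.16 (3), and the 26 with none of these of 0.17 (3). The medians of these classes lay close together, and no difference between classes was tested. The genes with an average below 0 were Mrps2 (-0.06) and Mrpl24 (-0.03), both named after their values were seen, though Mrpl24 reached 0.03 in an omission of a library, and Mrpl35, also named so, was at 0.003.

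**Figure D3:**
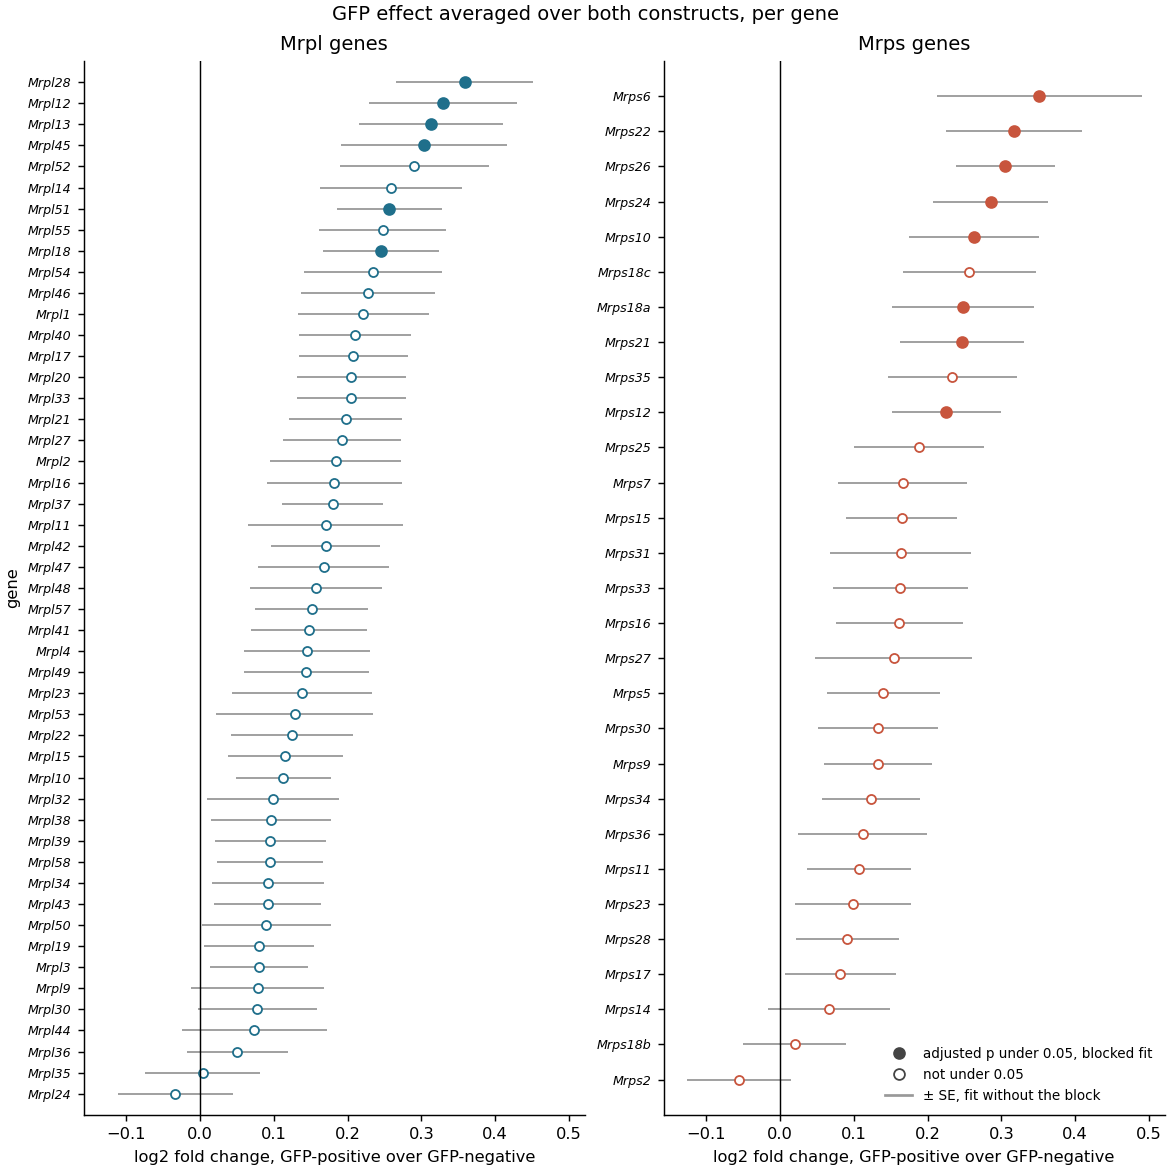
Average GFP difference of each of the 78 genes (log2 fold change of GFP-positive over GFP-negative cells, horizontal axis, with SE from the fit without the block), in separate panels for Mrpl and Mrps genes. Filled points are the 14 genes with an adjusted p under 0.05 in the blocked fit, and 76 of the 78 points lie above 0.

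With TOXFL alone, the median log2 difference between positive and negative cells was 0.14, with 71 of 78 above 0 (all tested genes: median -0.003). None of the 78 was called without the block, where 0.045% of tested genes were, nor with it, where 3.48% were. DESeq2 and limma-voom also called none, and 5 of 78 had an unadjusted p under 0.05 (6.41%), against 13.4% of tested genes. The positive libraries lay above both negative ones in 47 of 78 genes, against 24.9% of tested genes. After Mrps22, the lowest p-values without the block were those of Mrps26 (log2 0.30, adjusted p = 0.237), Mrpl28 (0.35, adjusted p = 0.298) and Mrps18a (0.34, adjusted p = 0.326). With the block and without either TOXdeltaN-positive library, whose removal changes the shared estimate of the spread, 6 of 78 were called, where 12.8% (without replicate 1) and 12.6% (without replicate 2) of tested genes were.

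With TOXdeltaN, the median was 0.18, with 75 of 78 above 0 (all tested genes: 0.005). None was called without the block, where 0.03% of tested genes were, nor with it, where 1.65% were, and DESeq2 and limma-voom called none. An unadjusted p under 0.05 was reached by 23 of 78 (29.5%), against 12.2% of tested genes, and 45 of 78 genes did not overlap, all of them higher in positive cells, against 21.1% of tested genes. Mrps24 (log2 0.40, adjusted p = 0.293), Mrps26 (0.31, adjusted p = 0.324), Mrpl51 (0.33, adjusted p = 0.332) and Mrpl52, a mitochondria-specific large-subunit protein (0.44, adjusted p = 0.346), had the lowest p-values. These values depended on replicate 2 of the positive cells. Without it the median was 0.07, with 59 of 78 above 0 and 0 called, and without replicate 1 it was 0.31, with 26 called where 11.3% of tested genes were.

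**Figure D4:**
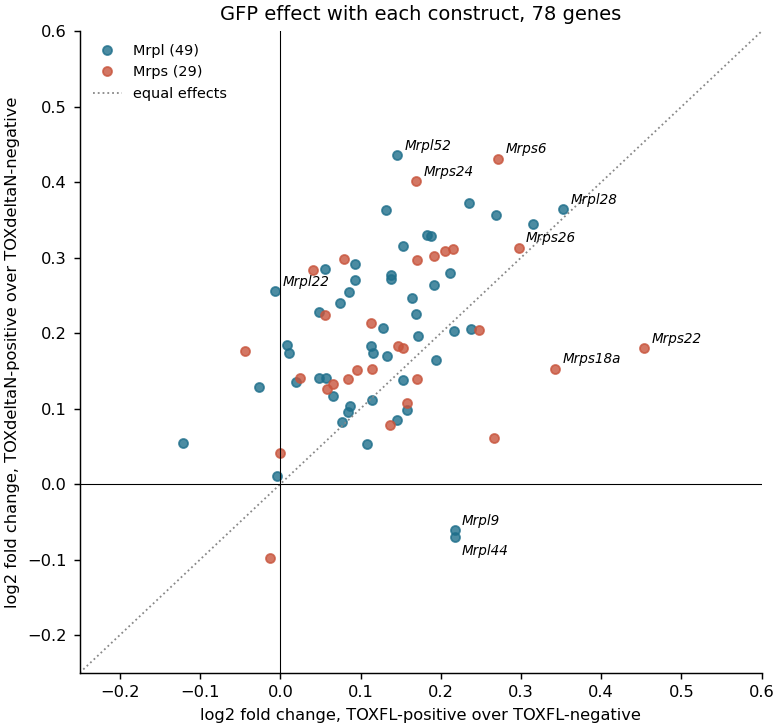
Log2 fold change of GFP-positive over GFP-negative cells with TOXFL (horizontal axis) and with TOXdeltaN (vertical axis) for the 49 Mrpl genes (blue-green) and 29 Mrps genes (orange-red), from separate libraries; the dotted line marks equal effects. Most genes lie above 0 on both axes, Mrps22 is the farthest right, and Mrpl9 and Mrpl44 lie above 0 with TOXFL and below 0 with TOXdeltaN.

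The difference between the GFP effects of the constructs was tested directly. TOXFL minus TOXdeltaN had a median of -0.07 over the 78 genes, and none was called with or without the block or with DESeq2 or limma-voom (0% of tested genes were called in edgeR without the block), nor did any reach an unadjusted p under 0.05, which 2.39% of tested genes did. The lowest p-values were those of Mrpl22 (-0.26), Mrpl9, the homologue of bacterial L9 (0.28), Mrps24 (-0.23) and Mrps22 (0.27), with SE from 0.15 to 0.18 and adjusted p-values rounding to 1. Without TOXdeltaN-positive replicate 2 the median turned to 0.05.

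Between the positive groups, TOXFL against TOXdeltaN, the median was -0.16, with 74 of 78 below 0 and 28 of 78 genes not overlapping and lower with TOXFL, against 16.1% of tested genes. None was called with or without the block (0% of tested genes without it) or with DESeq2 or limma-voom, and 3 had an unadjusted p under 0.05 (3.85%, against 5.76% of tested genes): Mrps24 (-0.28), Mrpl51 (-0.25) and Mrpl34 (-0.25), each with an adjusted p of 0.822. Without TOXdeltaN-positive replicate 2 the median was -0.03, with 31 of 78 above 0. Without replicate 1 it was -0.28, with 3 called, where 5.07% of tested genes were.

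The negative groups, TOXFL against TOXdeltaN, contain the cells that took up no detectable GFP. Their median was -0.08, with 71 of 78 below 0 and 39 of 78 not overlapping and lower in TOXFL-negative cells, against 16.6% of tested genes. None was called with or without the block (0% of tested genes without it), with DESeq2 or with limma-voom, and none had an unadjusted p under 0.05, against 2.46% of tested genes. Mrps22 (-0.28, adjusted p = 1.00), Mrps12 (-0.19), Mrps18a (-0.24) and Mrps11 (-0.14) had the lowest p-values. The median stayed between -0.10 and -0.05 in all 8 omissions of a library. These comparisons share libraries with the GFP comparisons, so their values are not independent of those above.

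**Figure D5:**
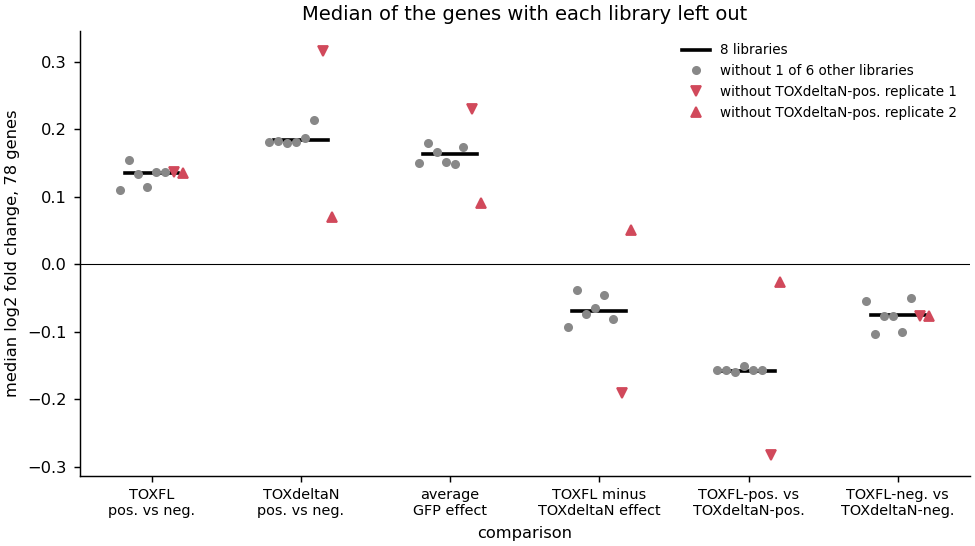
Median log2 fold change of the 78 genes (vertical axis) in the 6 comparisons (horizontal axis), with all 8 libraries (black line) and with each library left out (points; red triangles mark the TOXdeltaN-positive libraries). The median of the average GFP difference is above 0 in every omission, from 0.09 to 0.23, whereas the difference between the constructs changes sign without TOXdeltaN-positive replicate 2.

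Mitochondrial ribosomal proteins with other symbols gave a mixed picture in the average GFP difference. Gadd45gip1 (0.28, blocked adjusted p = 0.0314) and Chchd1 (0.26, blocked 0.0392) rose with the block, while Aurkaip1 (0.20, blocked 0.0557), Dap3 (0.08) and Ptcd3 (-0.09) were not called. Of 26 factors for assembly of the mitochondrial ribosome and modification of its RNA, none was called in either fit, 2 had an unadjusted p under 0.05 and their median was 0.07. The lowest p-values among them belonged to Eral1, an rRNA chaperone (0.23, blocked adjusted p = 0.0662), and Mpv17l2 (0.24, blocked 0.0747). Among 15 mitochondrial translation factors the median was -0.04, and only Tsfm, the exchange factor of the elongation factor Tufm, rose with the block (0.35, adjusted p = 0.0102). The 20 mitochondrial aminoacyl-tRNA synthetase and amidotransferase genes had a median of 0.04, and 2 had an unadjusted p under 0.05. With the block 1 of the 20 rose (5.0%), where 6.04% of tested genes were called higher. Among 12 genes of mitochondrial DNA upkeep and transcription none was called in either fit, 1 having an unadjusted p under 0.05.

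Related gene systems gave the following values, and no difference from the 78 genes was tested. All 13 protein-coding genes of mitochondrial DNA had an average GFP difference below 0, with a median of -0.35. With the block 6 of the 13 fell, where 892 of 13329 tested genes were called lower. These included mt-Co1, a catalytic subunit of complex IV (-0.43, adjusted p = 0.0249), and mt-Cytb of complex III (-0.44, adjusted p = 0.0117). The others were mt-Nd4l and mt-Nd5 of complex I, and mt-Atp6 and mt-Atp8 of ATP synthase. The values of the 13 genes depended on TOXFL-positive replicate 2, the library with the lowest share of mitochondrial transcripts. Without it the median was -0.22 (with TOXFL alone -0.19, against -0.51 with all libraries). Without TOXFL-positive replicate 1 it was -0.58 (with TOXFL alone -0.98). The calls with the block also changed with single libraries, as did the share of all tested genes called. They disappeared when TOXFL-negative replicate 2 or TOXdeltaN-negative replicate 2 was left out. Nuclear respiratory chain subunits had a median of 0.16 over 80 tested genes. With the block 14 of the 80 rose (17.5%) and none fell, where 6.04% of tested genes were called higher. Among the 14 were Cyc1 (0.30, adjusted p = 0.0154), Cox7a2 (0.33, adjusted p = 0.0174) and Ndufc1 (0.29, adjusted p = 0.0263). The median of the 80 genes was 0.09 without TOXdeltaN-positive replicate 2 and 0.21 without replicate 1. The 71 cytosolic ribosomal protein genes had a median of 0.03, from -0.11 with TOXFL to 0.16 with TOXdeltaN, and none was called in either fit or, on average, had an unadjusted p under 0.05. These signs turned with single libraries: the TOXFL median was 0.02 without TOXFL-positive replicate 2, the TOXdeltaN median was -0.0008 without TOXdeltaN-positive replicate 2, and the average was -0.06 without the latter and -0.05 without TOXFL-positive replicate 1. Among 9 tested regulators of nuclear genes for mitochondria, Gabpb2, a GABP subunit (-0.42, adjusted p = 0.00431), and the coactivator Ppargc1b (-0.36, adjusted p = 0.0383) fell with the block, while Nrf1 (0.13), Gabpa (-0.12), Yy1 (-0.0005) and Myc (-0.17, adjusted p = 0.0624) were not called.

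Head-to-head neighbours were also read, and their difference from the ribosomal genes was not tested. The 29 tested neighbours had a median of 0.01 in the average GFP difference, against 0.15 in the 33 ribosomal genes with such a neighbour. With the block 2 of the 29 rose (6.9%) and 1 fell. In that fit 6.04% of tested genes were called higher and 12.7% in either direction. Ska3, a kinetochore gene that starts 49 bases from Mrpl57, rose in both fits (0.52, adjusted p = 0.0257, blocked 0.00312), and Eme1, a nuclease subunit gene beside Mrpl27, rose with the block (0.33, adjusted p = 0.0211). Pnpla7, beside Mrpl41, fell with the block (-0.44, adjusted p = 0.00685). The ribosomal partners themselves, Mrpl57 (0.15), Mrpl27 (0.19) and Mrpl41 (0.15), named here for their neighbours, were not called.

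With a smooth trend of counts on exon length removed from each library, the median differences of the 78 genes were 0.11 with TOXFL, 0.13 with TOXdeltaN and 0.12 on average, against 0.14, 0.18 and 0.16 without this correction. For the positive groups the median moved from -0.16 to -0.09, and for the difference between the constructs from -0.07 to -0.01. Nuclear respiratory chain subunits moved from 0.16 to 0.09 on average, and mitochondrially encoded genes from -0.35 to -0.44. The correction used merged exon length, which in some members far exceeds the median coding transcript, as in Mrps10 (8079 against 1018 bases). A correction by transcript length was not made.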

How the data were processed

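RNA of 8 libraries (8 ng of total RNA each, SMART-Seq v4 and Nextera XT) was measured, and the authors deposited a table of estimated counts per gene from RSEM, per the labels. The submitters' processing notes name bcl2fastq 2.20, cutadapt, STAR 2.6.1, RSEM 1.2.28 and GRCm38, and the annotation release is not given in the sources used here. Of 31907 rows, 92 spike-in rows held 0 counts and were left out. Gene IDs of 31748 of 31815 rows matched GENCODE M21 without the version and 31173 with it.

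The estimated counts are whole numbers in the deposited table and were tested as deposited with edgeR 4.0.16 (R 4.3.3; TMM factors 0.989 to 1.02, filterByExpr, quasi-likelihood test over 4 groups, Benjamini-Hochberg adjustment over 13329 genes, threshold 0.05). The test was also run on simulated counts for the TOXFL comparison only, and the outcome is not reported here. The average GFP comparison was not simulated. Alternatives were DESeq2 1.42.0, limma-voom (limma 3.58.1), other scaling and filters, a lowess correction for exon length (span 0.3), omission of each library and the replicate number as a block. Libraries with the same number deviated together from the means of their groups (r of 0.168 to 0.241 over tested genes, in all 6 pairs of groups), so the numbers were taken to pair the libraries. This pairing comes from the data, since the labels do not say what a number marks.

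Members and lists were chosen with earlier results of these data known. Named members were those with the lowest p-values (8 in the average GFP comparison, 4 in each other), the 3 highest and 2 lowest levels per kilobase in each subunit, and genes known for a role. Any other named member was chosen after its values were seen, for its neighbour, for its level by the other length, or for a call in the blocked fit. From related lists, genes called in a fit or with the lowest p-values were named. Values of some single genes of the related and marker lists are not reported here. Counting error is small at these depths, and the 2 libraries a group limit the precision.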

Additional observations from a re-analysis of the deposited data

How the results depend on the processing

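With the replicate number as a block (pairing read from the data), 14 of the 78 genes were called in the average GFP comparison against 0 without it, and 0 in each of the other 5 comparisons in both fits. Percentages in brackets are the share of all tested genes called in the same fit. The average GFP comparison gave 1 call with library totals as the only scaling (2.5%), 11 without the filter on low counts (7.78%), 6 with DESeq2 (7.94%), 1 with limma-voom (2.56%), 1 with the length correction (2.69%) and 14 with the length correction and the block (12.1%). For TOXFL, the length correction with the block gave 2 calls (4.19%). Leaving out each library in turn, without the block, gave 0 to 36 calls in the average GFP comparison, 0 to 26 with TOXdeltaN and 0 to 3 between the positive groups, the highest counts all coming without TOXdeltaN-positive replicate 1 (18%, 11.3% and 5.07%). In blocked fits, an alternative chosen after seeing the data, the average GFP calls numbered 3 when TOXFL-negative replicate 1 was left out (4.58%), 2 for TOXFL-positive replicate 1 (5.37%) and 11 for its replicate 2 (7.6%), 48 for TOXdeltaN-positive replicate 1 (26.5%) and 10 for its replicate 2 (14.5%), and 0 for each of the other 3 libraries. Blocked fits without TOXdeltaN-positive replicate 1 gave 6 calls with TOXFL (12.8%), 40 with TOXdeltaN (19.1%) and 25 between the positive groups (13.9%), and those without replicate 2 gave 6 with TOXFL (12.6%).

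Over omissions of a library, the median with TOXdeltaN ranged from 0.070 to 0.31 for all 78 genes, 0.078 to 0.32 for Mrpl and 0.041 to 0.31 for Mrps genes. The median difference between the constructs ranged from -0.19 to 0.050, -0.20 to 0.044 and -0.18 to 0.063, and that between the positive groups from -0.28 to -0.026, -0.30 to -0.035 and -0.24 to -0.0021. Signs of the average GFP difference turned in some genes, of which 3 with small values are given here. Of the 78 genes, 76 were above 0 with all libraries and 72 without TOXdeltaN-positive replicate 2. Over omissions, Mrpl44 ranged up to 0.15, Mrpl9 up to 0.16 and Mrps18b up to 0.068. Mrpl44 was at -0.024 with the length correction, -0.027 with it and the block, -0.00014 without TOXFL-positive replicate 2 and -0.015 without TOXdeltaN-positive replicate 2. Mrpl9 was at -0.013 without TOXFL-positive replicate 2. Mrps18b was at -0.061 with the length correction, with or without the block, and at -0.032 without TOXdeltaN-positive replicate 2. The cause was not tested. A minimum summed count of 2000, or none, gave the same 78 genes.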
